A study of Mus musculus with 6 samples.

Results

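The 4 Hox clusters were followed in ATAC-seq data from mouse small-intestinal organoids by taking every consensus peak whose nearest gene, in the deposited annotation, is 1 of 41 genes: the Hoxa, Hoxb, Hoxc and Hoxd genes, the neighbouring homeobox genes Evx1 (counted with Hoxa) and Evx2 (counted with Hoxd), and the microRNA gene Mir10b (counted with Hoxd). A limit of 50 kb between the peak and the transcription start site (TSS) was applied, and the farthest peak that it kept, at Hoxc4, lay 16.2 kb away. The rule gave 88 of 156733 peaks at 36 of the 41 genes, and no peak was assigned to Hoxa3, Hoxb1, Hoxb2, Hoxc5 or Hoxd4. The genes were chosen by family name, and the family was selected on accessibility values, since it was put forward after Hoxd peaks had been seen to differ between ages in these libraries, so the age contrast describes it and is no independent evidence that the family changed.

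ATAC-seq uses the transposase Tn5 to insert adapters into open chromatin, and the count in a peak measures its accessibility. Organoids are epithelial structures grown in culture from stem cells, with their differentiated descendants. The aged group had 3 libraries from organoids of untreated C57BL/6JRj mice aged 20 to 22 months, and the young group had 3 from untreated mice of the same strain aged 2 to 3 months. Culture lasted 3 to 5 weeks in both groups. Replicate 1 was taken at passage 4, replicate 2 at passage 3 and replicate 3 at passage 2, so each passage had 1 aged and 1 young library. Whether replicates are different animals is not in the labels, and p-values therefore reflect the spread among these 6 libraries alone. Aged libraries held 21687816 to 26093521 counts in peaks. Young replicates 2 and 3 held 25901670 and 19208483 counts, and young replicate 1 held 7278161 counts, stood apart on the first principal component and was the shallowest. Promoters of intestinal epithelium markers were open, with a peak at 8 of 10 genes and a median of 44.0 CPM (counts scaled to a common library total), against a peak at 1 of 10 immune genes (Cd68, and none at Ptprc), at 6 of 12 stromal genes and at 4 of 10 endothelial and neural genes.

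Hox genes encode homeodomain transcription factors that give cells their position along the body axis. They lie in clusters whose order mirrors the order of their activity: the genes at the 3′ end act in anterior regions, and those at the 5′ end act in posterior regions, including the hindgut. Polycomb complexes keep silent Hox genes closed, Trithorax proteins keep active ones open, and CDX factors and retinoic acid set the initial pattern. In the gut the mesenchyme carries much of the Hox code, and the epithelium keeps a regional part of it.

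RefSeq promoter windows (GRCm38.p6, 250 bases before to 50 bases after a start) were found for 24 of the member genes, as 26 windows. Overlap was sought only with peaks between the outermost member peaks of each cluster, a range that leaves out the Hoxb1 window. Of the 26 windows, 12 overlapped such a peak, and 4 overlapped a peak called different between ages, these 4 in the Hoxd cluster on chromosome 2. These 4 are printed because they show the DNA of the changed promoters: Hoxd1 (chr2:74762730-74763029), Hoxd9 (chr2:74697513-74697812) and Hoxd11 (chr2:74682073-74682372), whose peaks were lower in aged organoids, and Hoxd4 (chr2:74721728-74722027), which lies within a peak assigned to Mir10b that was higher. All are on the plus strand, and capitals mark matches to the motifs TTTATN (CDX-like), TGATTNAT (HOX-PBX-like), TGANTCA (AP-1-like) and CCCTC (part of the CTCF site), searched on both strands, with no overlap between motifs in these windows.
Hoxd1 promoter: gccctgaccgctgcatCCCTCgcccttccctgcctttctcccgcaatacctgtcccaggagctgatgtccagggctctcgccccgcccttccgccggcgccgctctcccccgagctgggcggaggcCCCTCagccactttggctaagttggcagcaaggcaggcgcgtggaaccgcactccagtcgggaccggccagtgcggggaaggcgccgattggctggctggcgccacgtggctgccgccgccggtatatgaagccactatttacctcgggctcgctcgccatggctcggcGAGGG
Hoxd9 promoter: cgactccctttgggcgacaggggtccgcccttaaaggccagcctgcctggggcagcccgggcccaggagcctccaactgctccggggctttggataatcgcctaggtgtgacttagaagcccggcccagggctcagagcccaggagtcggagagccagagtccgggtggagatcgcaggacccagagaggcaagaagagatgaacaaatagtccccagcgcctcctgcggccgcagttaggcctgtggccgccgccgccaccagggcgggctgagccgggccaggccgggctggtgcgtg
Hoxd11 promoter: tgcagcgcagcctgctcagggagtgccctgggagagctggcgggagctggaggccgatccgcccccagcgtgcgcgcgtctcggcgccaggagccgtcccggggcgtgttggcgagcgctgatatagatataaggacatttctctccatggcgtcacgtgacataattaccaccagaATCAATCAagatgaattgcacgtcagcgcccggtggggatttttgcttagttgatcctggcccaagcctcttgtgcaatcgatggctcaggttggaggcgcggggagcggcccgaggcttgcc
Hoxd4 promoter: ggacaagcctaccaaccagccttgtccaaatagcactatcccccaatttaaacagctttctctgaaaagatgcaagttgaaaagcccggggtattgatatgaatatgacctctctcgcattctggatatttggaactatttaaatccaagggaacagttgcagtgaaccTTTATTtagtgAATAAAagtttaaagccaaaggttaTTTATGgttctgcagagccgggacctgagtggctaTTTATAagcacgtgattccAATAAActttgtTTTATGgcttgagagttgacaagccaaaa

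The mature 5′ product of Mir10b (chr2:74726074-74726096, plus strand) is shown as the microRNA next to the peaks that were higher, with its seed, bases 2 to 8, in capitals. Its level was not measured here.
mmu-miR-10b-5p: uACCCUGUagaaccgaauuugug

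The Hoxd1, Hoxd11 and Hoxd9 windows were rich in G and C (69.7%, 62.0% and 68.3%) and held 29, 25 and 20 CpG dinucleotides. The Hoxd4 window had a G and C content of 39.7% and 4 CpG. Windows that overlapped a peak not called ranged from 54.3% (Hoxa10) to 81.0% (Hoxa13) in G and C. They held from 9 (Hoxa7) to 45 (Hoxa13) CpG, so the values of the 3 lower promoters are not particular to them. Over the 26 member windows the median was 14.5 CpG, against 7 over 32851 RefSeq windows. The Hoxd4 window held 6 matches to TTTATN, as did that of Hoxb8, whose window overlapped no peak. Only 0.487% of all windows held 6 or more, although 42.3% of member windows and 39.9% of all windows held at least 1. TGATTNAT was in 7.69% of member windows, 1 of them that of Hoxd11, against 3.22% of all. TGANTCA was in 3.85% of member windows against 7.81% of all, and CCCTC in 69.2% against 66.0%. A match is a description of the letters and shows no binding.

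In aged organoids, 5 peaks of the Hoxd cluster and 1 of Hoxc10 were less accessible than in young organoids, and 3 neighbouring Hoxd peaks assigned to Mir10b were more accessible. The lower peaks lay at the starts of Hoxd1, Hoxd9 and Hoxd11 and in exons of Evx2, by 2-fold or more on the fitted scale at each (log2 fold changes -1.01 to -1.72). A call needed an adjusted p (Benjamini-Hochberg) under 0.05 in edgeR's quasi-likelihood test over 132055 tested peaks, and each log2 fold change is that of aged relative to young. Of the 88 member peaks, 72 passed the low-count filter and were tested, and 9 were called. The call rate over all tested peaks was 1.13%, or 0.619% higher and 0.51% lower in aged libraries. By cluster, 8 of 19 tested Hoxd peaks, 1 of 17 Hoxc, 0 of 17 Hoxb and 0 of 19 Hoxa peaks were called. At an unadjusted p under 0.05 the counts were 9 for Hoxd, 2 for Hoxc, 1 for Hoxb and 3 for Hoxa, against 9.71% of all tested peaks, and DESeq2 called 5, 0, 0 and 0. Counts over the tested members omit the 16 members that were too low to test, and because the choice of the family used this contrast nothing is read from their excess over the background. In bulk cultures, fewer cells with an open site and a less open site per cell cannot be told apart.

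**Figure D1:**
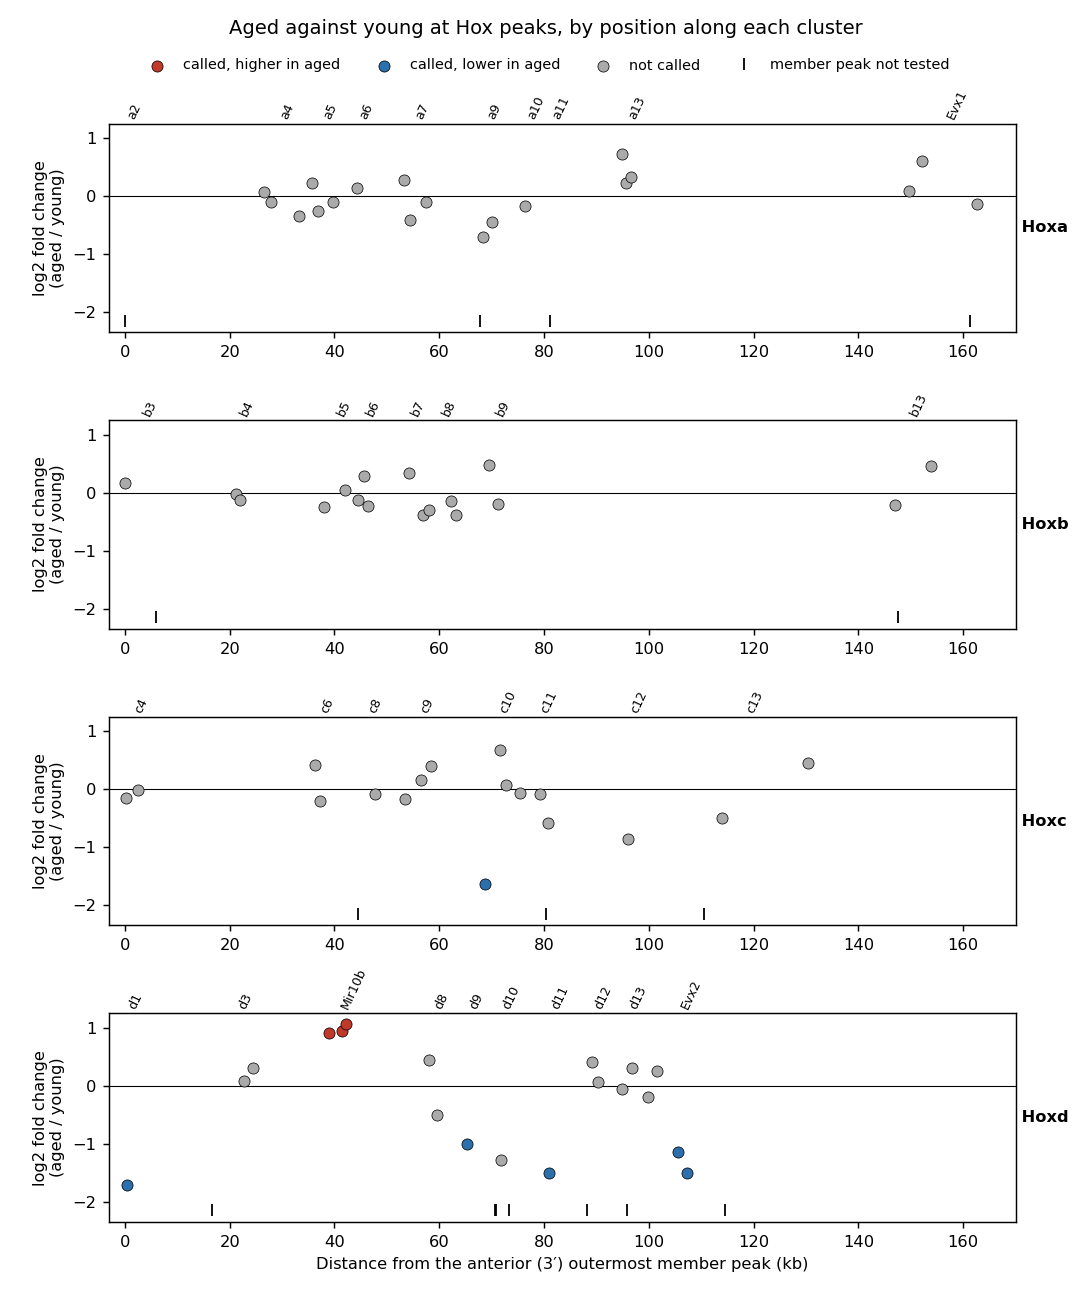
Log2 fold change (aged over young) of each tested member peak against its distance in kb from the outermost anterior (3′) member peak, 1 panel per cluster, with ticks for the 16 peaks not tested. The called Hoxd peaks fall between -1.72 and 1.06, with the 3 higher ones at about 39.0 to 42.2 kb between lower ones, whereas the Hoxa and Hoxb panels hold no called peak.

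Hoxd1 is the most anterior gene of its cluster and in mice is known from sensory neurons. Its promoter peak (chr2:74762725-74763399), which contains the printed window and also overlaps the antisense RNA gene Haglr, had 1.08, 0.550 and 0.731 CPM in aged replicates 1 to 3, against 2.93, 3.07 and 1.89 CPM in young replicates 1 to 3. The raw counts were 24, 12 and 19 in aged and 21, 82 and 36 in young libraries. Every aged value was below every young value. The log2 fold change was -1.72 (SE 0.28, edgeR's quasi-likelihood test, Benjamini-Hochberg adjusted p = 2.72e-04), the largest fall among the members. The call held with any 1 library left out and was lost with every library thinned to the depth of young replicate 1 (adjusted p = 0.0815). The data carry no statement on strand, so the Hoxd1 start and the overlapping Haglr cannot be told apart.

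Toward the 5′ end, Hoxd9 and Hoxd11, which pattern the limb and the posterior trunk, had lower promoter peaks as well. The Hoxd9 peak (chr2:74697599-74698434) had 2.17, 1.33 and 1.62 CPM in aged replicates 1 to 3, against 2.79, 3.90 and 3.25 CPM in young replicates 1 to 3. Its log2 fold change was -1.01 (SE 0.22, edgeR's quasi-likelihood test, Benjamini-Hochberg adjusted p = 0.0116). The Hoxd11 peak (chr2:74681965-74682934) had 1.49, 0.780 and 0.770 CPM in aged replicates 1 to 3, against 2.37, 3.71 and 2.10 CPM in young replicates 1 to 3. Neither gene's groups overlapped, and the highest young value was that of replicate 2 at both. At Hoxd11 the log2 fold change was -1.50 (SE 0.28, edgeR's quasi-likelihood test, Benjamini-Hochberg adjusted p = 0.00159). Without young replicate 2 both calls were lost (adjusted p = 0.102 for Hoxd9 and 0.0754 for Hoxd11). Hoxd9 also lost its call without aged replicate 2 (0.0817) or aged replicate 3 (0.088), in DESeq2 (0.0601) and in thinned libraries (0.152), as did Hoxd11 in thinned libraries (0.307).

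Between them lies Hoxd10, a gene of hindlimb motor neurons. Its promoter peak (chr2:74691516-74691844) had 0.542, 0.275 and 0.462 CPM in aged replicates 1 to 3, against 0.976, 1.13 and 0.995 CPM in young replicates 1 to 3. The groups did not overlap, but the peak missed the threshold, with a log2 fold change of -1.28 (SE 0.37, edgeR's quasi-likelihood test, Benjamini-Hochberg adjusted p = 0.0997). With the replicate number as a block it passed (log2 fold change -1.33, adjusted p = 0.0391). That fit called 2.67% of all tested peaks (1.46% higher and 1.21% lower) and 11 members, 4 higher and 7 lower. Tested peaks within 1 kb of other Hoxd starts did not pass, with log2 fold changes of 0.44 and -0.51 at Hoxd8, 0.41 at Hoxd12 and -0.05 at Hoxd13, the digit and hindgut gene at the 5′ end. A second Hoxd12 peak, 0.274 kb from the start, was too low to test and ran the other way, with 0.226, 0.275 and 0.308 CPM in aged replicates 1 to 3, against 0.418, 1.16 and 0.524 CPM in young replicates 1 to 3.

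Evx2, a homeobox gene beside Hoxd13, had 2 lower peaks, both in exons. The peak 3.36 kb downstream of the start (chr2:74655564-74656558) had 1.67, 0.963 and 1.08 CPM in aged replicates 1 to 3, against 3.49, 4.05 and 2.93 CPM in young replicates 1 to 3. Its log2 fold change was -1.51 (SE 0.24, edgeR's quasi-likelihood test, Benjamini-Hochberg adjusted p = 1.71e-04), and the call held under all 13 processing alternatives (adjusted p 6.31e-08 to 0.00644). The peak 1.501 kb downstream (chr2:74657756-74658080) had 0.858, 0.871 and 0.539 CPM in aged replicates 1 to 3, against 1.67, 1.80 and 1.47 CPM in young replicates 1 to 3. At both peaks each aged value was below each young value. The second had a log2 fold change of -1.14 (SE 0.29, edgeR's quasi-likelihood test, Benjamini-Hochberg adjusted p = 0.0442), and its call was lost with each of the 6 libraries left out in turn (adjusted p 0.0546 to 0.328), in DESeq2 (0.265) and in thinned libraries (0.609). The other 3 Evx2 peaks were intergenic, and those tested had log2 fold changes of -0.19 and 0.26.

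The 3 peaks that were higher in aged organoids were assigned to Mir10b by the deposited annotation but lie within the RefSeq spans of Hoxd3 and, for 2 of them, Hoxd4. The RefSeq start of Hoxd4 (position 74721978) lies inside 1 of them. The peak 4.85 kb upstream of Mir10b (chr2:74721077-74721365) had 5.46, 4.31 and 4.97 CPM in aged replicates 1 to 3, against 3.35, 2.25 and 1.99 CPM in young replicates 1 to 3. Its log2 fold change was 1.06 (SE 0.20, edgeR's quasi-likelihood test, Benjamini-Hochberg adjusted p = 0.00198), and the call held under all 13 alternatives (adjusted p 2.9e-05 to 0.0221). The groups were well apart, with the lowest aged value above the highest young one.

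The neighbouring peak 4.13 kb upstream of Mir10b (chr2:74721722-74722152) contains the whole Hoxd4 window printed above. It had 4.42, 3.26 and 4.31 CPM in aged replicates 1 to 3, against 2.51, 1.35 and 2.72 CPM in young replicates 1 to 3, with a log2 fold change of 0.95 (SE 0.23, edgeR's quasi-likelihood test, Benjamini-Hochberg adjusted p = 0.0252). Its call was lost in DESeq2 (0.117), in thinned libraries (0.356) and without aged replicate 1 (0.109), aged replicate 3 (0.159) or young replicate 2 (0.242). The intronic peak 1.66 kb upstream (chr2:74724317-74724508) had 5.05, 4.63 and 4.77 CPM in aged replicates 1 to 3, against 3.07, 2.02 and 2.93 CPM in young replicates 1 to 3. Neither peak's groups overlapped. The intronic peak had a log2 fold change of 0.91 (SE 0.19, edgeR's quasi-likelihood test, Benjamini-Hochberg adjusted p = 0.00769) and lost its call without young replicate 2 (0.103). Farther toward Hoxd8, a peak assigned to Hoxd3os1 (chr2:74715794-74716174), which is no member and was picked out after its values were seen, had 6.86, 7.52 and 6.51 CPM in aged replicates 1 to 3, against 5.30, 4.72 and 4.24 CPM in young replicates 1 to 3. It did not pass (log2 fold change 0.58, edgeR's quasi-likelihood test, Benjamini-Hochberg adjusted p = 0.0770) and passed with the replicate block (0.0100). None of the 40 tested peaks of other genes within the 4 spans was called, and 4 had an unadjusted p under 0.05.

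**Figure D2:**
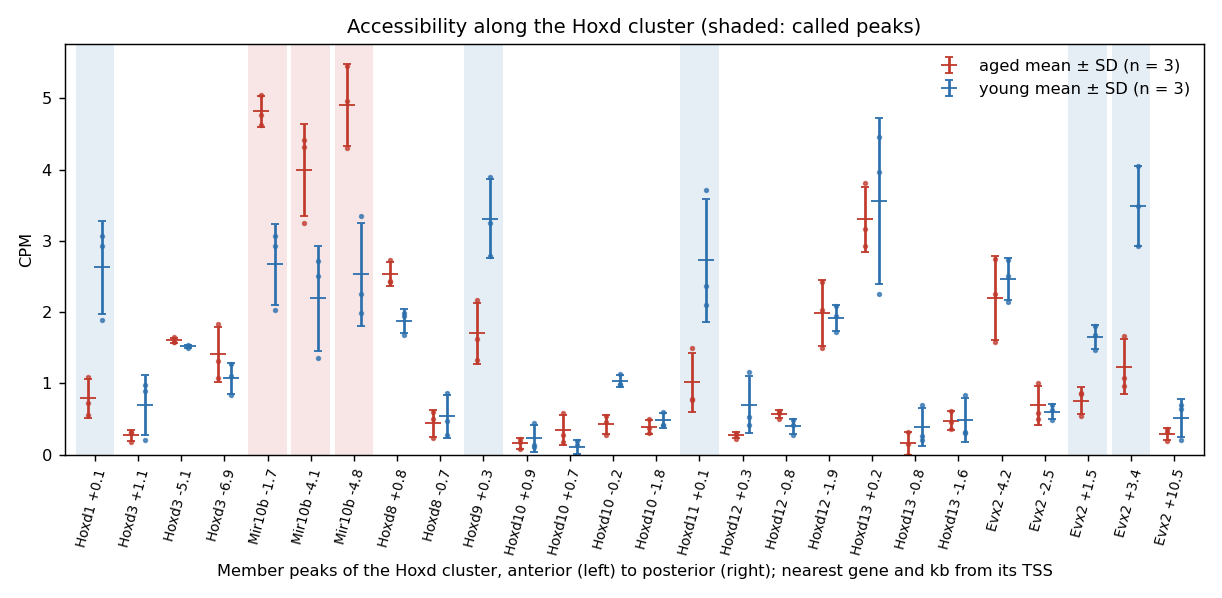
CPM of all 26 Hoxd member peaks from anterior (left) to posterior (right), aged beside young, with points for libraries and bars for the mean and SD of 3 libraries. Shaded peaks were called: the 3 Mir10b peaks averaged 4.00 to 4.91 CPM in aged libraries and 2.19 to 2.68 CPM in young libraries, and the 5 others were lower in aged libraries.

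Hoxc10, also a gene of posterior trunk and hindlimb, was the only member outside Hoxd that was called. The peak just upstream of its start (chr15:102966534-102966688) had 0.316, 0.688 and 0.270 CPM in aged replicates 1 to 3, against 0.976, 1.95 and 0.681 CPM in young replicates 1 to 3. The highest aged library overlapped the lowest young one, and the counts were small: 7, 15 and 7 in aged and 7, 52 and 13 in young libraries. The log2 fold change was -1.63 (SE 0.41, edgeR's quasi-likelihood test, Benjamini-Hochberg adjusted p = 0.0380). Without young replicate 2 it was -0.89 (adjusted p = 0.513), and the call was also lost without aged replicate 1 (0.148), aged replicate 3 (0.248) or young replicate 1 (0.0605) and in DESeq2 (0.255). With a minimum count of 30 or in thinned libraries the peak was not tested.

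**Figure D3:**
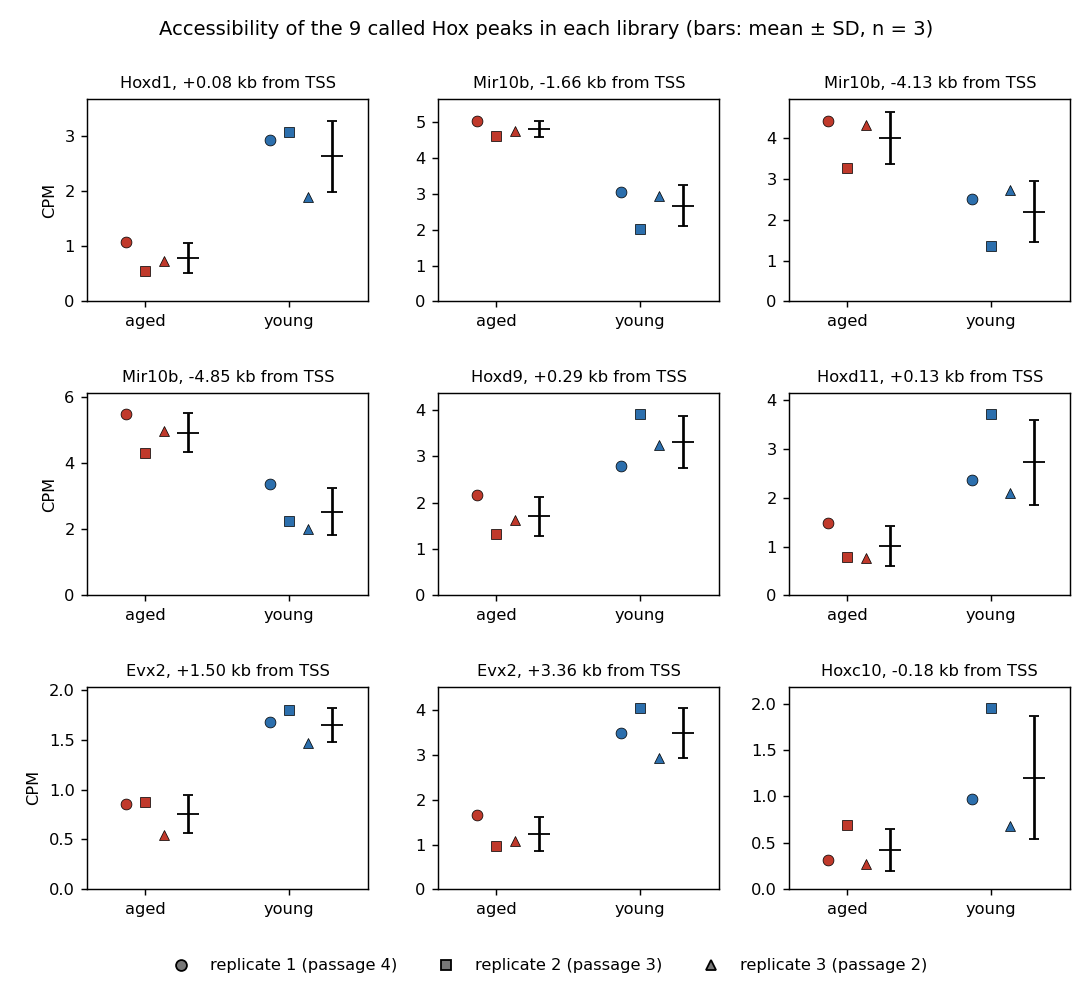
CPM of the 9 called member peaks in each library, aged left of young, with the mean and SD of 3 libraries and a symbol for each replicate and passage. The groups overlap at Hoxc10 and at no other of the 9 peaks, and young replicate 2 is the highest library at all 6 lower peaks.

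All 9 called peaks kept their sign in 3 of 3 pairs of libraries with the same replicate number. Young replicate 2 was the highest library at all 6 lower peaks, and over the 72 tested members it was the highest at 29.2%, against 15.4% of all tested peaks. Leaving it out cut the called members to 4, of which 3 were among the 9, while 1902 peaks were called over the whole table, against 1491 with all libraries. The 4 were the Hoxd1 peak, the farther Evx2 peak, the Mir10b peak 4.85 kb upstream and, newly, an intronic Evx1 peak. Of the 72 tested members, 11 had every aged value above every young value and 8 had every aged value below. Over all tested peaks the shares were 7.67% and 7.08%. Hoxd held 6 of each among its 19 tested peaks. Because the choice of the family used this contrast, nothing is read from these counts.

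None of the strongest peaks of Hoxa, Hoxb and Hoxc (2 per cluster) passed the test. Hoxa7, a gene of the trunk, had the strongest Hoxa peak (chr6:52221498-52222117, 1.41 kb upstream of its start), with 7.31, 7.89 and 5.81 CPM in aged replicates 1 to 3, against 8.37, 7.16 and 7.28 CPM in young replicates 1 to 3. These overlapped, with a log2 fold change of -0.10 (edgeR's quasi-likelihood test, Benjamini-Hochberg adjusted p = 0.904). The next was an intronic peak of Evx1, a homeobox gene of spinal interneurons (chr6:52315851-52317082), with 4.15, 6.24 and 7.93 CPM in aged replicates 1 to 3, against 2.65, 5.29 and 3.35 CPM in young replicates 1 to 3. The aged value was the higher one in each pair, although the groups overlapped. The fold change was 0.60 on the log2 scale (edgeR's quasi-likelihood test, Benjamini-Hochberg adjusted p = 0.314). It passed with the replicate block (0.69, adjusted p = 0.00368) and also without aged replicate 1 (0.0381) or young replicate 2 (0.0346).

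Hoxb9, a posterior Hoxb gene, had the strongest Hoxb peak (chr11:96271161-96272290), with 6.73, 5.46 and 6.89 CPM in aged replicates 1 to 3, against 3.49, 5.25 and 4.40 CPM in young replicates 1 to 3. The groups did not overlap, but the peak did not pass (log2 fold change 0.48, edgeR's quasi-likelihood test, Benjamini-Hochberg adjusted p = 0.253, and 0.0828 to 0.651 over the alternatives). An intergenic peak upstream of Hoxb8 averaged 3.17 ± 0.344 CPM in aged and 3.64 ± 0.896 CPM in young libraries (SD, n = 3 each). In Hoxc, the leading peaks were in an intron of Hoxc4, at 4.15 ± 0.724 CPM in aged and 4.20 ± 0.610 CPM in young libraries, and at Hoxc8, at 3.16 ± 0.0740 CPM in aged and 3.25 ± 0.358 CPM in young libraries (SD, n = 3 each). Their log2 fold changes were -0.14, -0.01 and -0.08, and all groups overlapped.

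Summed over all member peaks, the aged and young libraries overlapped in each of the 4 clusters. The Hoxd sum was 39.6, 35.4 and 35.2 CPM in aged replicates 1 to 3, against 42.1, 43.0 and 34.2 CPM in young replicates 1 to 3. The ratio of its means was 0.924, the lowest of the 4. The ratio was 1.02 for Hoxa (44.9 ± 3.86 CPM in aged and 44.3 ± 2.81 CPM in young libraries), 1.03 for Hoxb and 1.01 for Hoxc (SD, n = 3 each). With 1 library left out these 3 ratios ranged from 0.966 to 1.05, from 0.971 to 1.10 and from 0.960 to 1.06, and that of Hoxd from 0.863 to 0.963. The spread of single peaks differed more: the median size of the log2 fold change, whatever its sign, was 0.51 in Hoxd, 0.23 in Hoxa, 0.24 in Hoxb and 0.20 in Hoxc, against 0.17 over all tested peaks. Signed medians were 0.06, -0.10, -0.13 and -0.08 in the same order, against -0.01 over all. Because the family was chosen on Hoxd peaks of this contrast, nothing is read from the wider Hoxd spread. Median levels over member peaks, tested or not, were 1.22 CPM in Hoxd, 1.53 in Hoxa, 1.48 in Hoxb and 1.51 in Hoxc. Over all peaks the median was 1.62 CPM, and the part of level in the spread was not tested.

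By position along Hoxd, higher and lower calls were unevenly spread. Of 8 tested peaks from Hoxd1 to Hoxd8, with Mir10b, 3 were higher and 1 was lower, with a median log2 fold change of 0.37. Of 11 from Hoxd9 to Evx2, 0 were higher and 4 were lower, with a median of -0.19. The corresponding medians were -0.10 and 0.09 in Hoxa, -0.13 and 0.13 in Hoxb, and -0.08 and -0.08 in Hoxc. The anterior Hoxd call that went down, Hoxd1, lay at the far end from the others, with tested Hoxd3 peaks of 0.08 and 0.30 between it and the Mir10b peaks. Another Hoxd3 peak, the member nearest to Hoxd1, was too low to test. It averaged 0.270 CPM in aged and 0.695 CPM in young libraries, and its groups overlapped. The order of calls along Hoxd was seen after the calls, and no test was made of it. The 3 higher calls were the neighbouring Mir10b peaks, and the 4 lower ones from Hoxd9 to Evx2 included the Evx2 exon peaks. These counts are therefore not of separate genes. Over all tested peaks, 0.619% were called higher and 0.51% lower.

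Passage, a contrast that the choice of the family did not use, gave no called member. With passage (2, 3 and 4) as a number beside age, edgeR's quasi-likelihood test called 0 of 72 members, and also 0 under each alternative run. The same edgeR test gave 2 members, both in Hoxa, an unadjusted p under 0.05, and their smallest Benjamini-Hochberg adjusted p was 0.894 by edgeR's quasi-likelihood test. Over all tested peaks 0.00303% (4 peaks) were called and 5.27% had an unadjusted p under 0.05. Passage and the culture code of the titles cannot be told apart in these libraries.

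Member promoter peaks were weak, and member peaks lay near genes. At 25 member genes with a peak within 1 kb of the start, the median level was 3.25 CPM per kb of peak, against 21.1 CPM per kb at 11135 protein-coding promoters, and 24 of the 25 lay below the lower quartile of those promoters, 7.99 CPM per kb. Over all 88 members the median was 1.40 CPM, against 1.62 CPM over all peaks, or 3.64 against 6.03 CPM per kb. Their level per kb was highest at the intergenic Hoxb8 peak (19.9 CPM per kb) and the intronic Mir10b peak (19.5), and lowest at Hoxd12 (1.17). Promoter-TSS was the annotated class of 27 of 88 members (30.7%, against 11.1% of all peaks) and exon that of 21 (23.9%, against 5.84%). Intron was that of 18, against 42.5% of all peaks, and intergenic that of 15, against 35.8%. The 16 members not tested averaged 0.157 to 0.506 CPM in aged and 0.109 to 0.701 CPM in young libraries. Among them, the peaks at Hoxd12 and at Hoxc11 had every aged value below every young value, as did 7.08% of all tested peaks. No share was computed over peaks not tested, and nothing is read from these members.

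Genes that act with or on the Hox clusters were read at their own promoters, with 1 peak per gene within 1 kb of the start, where 0.489% of 14319 such peaks were called higher and 0.999% lower. Of 5 tested HOX cofactors of the TALE class, 0 were higher and 1, Meis1, was lower. Its peak (chr11:19018790-19019205) had 4.06, 3.58 and 2.69 CPM in aged replicates 1 to 3, against 5.58, 5.92 and 6.34 CPM in young replicates 1 to 3, with no overlap. The log2 fold change was -0.81 (SE 0.18, edgeR's quasi-likelihood test, Benjamini-Hochberg adjusted p = 0.0108), and the call was lost without aged replicate 3 (0.187) and in thinned libraries (0.332). Pbx2, another cofactor of this class, was at 0.33 and did not pass (edgeR's quasi-likelihood test, adjusted p = 0.423).

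No promoter was called by edgeR's quasi-likelihood test among 15 tested Polycomb subunits, 4 Trithorax and H3K27 demethylase genes and 8 upstream regulators, with 0, 1 and 1 at an unadjusted p under 0.05. Among Polycomb genes, Jarid2 had a log2 fold change of 0.13. The smallest p-values of the second list belonged to Men1 (-0.74, adjusted p = 0.282) and Ash2l (0.13), and those of the third to the retinoid receptor gene Rxra (0.43, adjusted p = 0.341) and Cdx1 (0.16). List medians were 0.02 for the cofactors, 0.06 for Polycomb, 0.01 for Trithorax and 0.09 for upstream regulators, against 0.03 over all 14319 promoters.

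Markers of other cells and of gut regions were measured beside these results. None of the 6 marker lists had a called promoter, and 2 epithelial, 0 stromal, 0 immune, 1 endothelial or neural, 1 proximal and 1 distal gene had an unadjusted p under 0.05 in edgeR's quasi-likelihood test. Summed promoters of stromal genes ranged from 28.8 to 34.3 CPM in aged and from 25.3 to 33.7 CPM in young libraries. Of 12 stromal genes, 6 had a promoter peak, among them Pdgfra (19.9 ± 2.38 CPM in aged and 18.4 ± 2.23 CPM in young libraries, SD, n = 3 each), which made up most of the sum, and 6 had none, among them Col1a2, Col3a1, Dcn and Lum. Twist1, another stromal gene, had 1.63, 1.93 and 1.93 CPM in aged replicates 1 to 3, against 2.23, 3.37 and 1.78 CPM in young replicates 1 to 3. Proximal small-intestine promoters summed to 136 to 144.7 CPM in aged and 128 to 139.6 CPM in young libraries, and distal ones to 49.1 to 57.4 CPM in aged and 52.3 to 60.0 CPM in young libraries. These summed ranges overlapped. Of 8 distal genes, 4 had a promoter peak. Osr2 made up most of the distal sum (33.6 ± 1.18 CPM in aged and 35.4 ± 1.01 CPM in young libraries, SD, n = 3 each). Single markers did not all overlap. The endothelial gene Kdr had 1.85, 2.20 and 1.93 CPM in aged replicates 1 to 3, against 2.79, 3.67 and 2.67 CPM in young replicates 1 to 3 (log2 fold change -0.65, edgeR's quasi-likelihood test, Benjamini-Hochberg adjusted p = 0.187, and 0.0874 with the replicate block). The distal gene Car4 had 1.31, 1.47 and 1.96 CPM in aged replicates 1 to 3, against 1.53, 2.96 and 2.46 CPM in young replicates 1 to 3 (log2 fold change -0.65, adjusted p = 0.301 in the same test). The Car4 groups overlapped, with aged replicate 3 above young replicate 1. Young replicate 2, the highest library at the lower Hox peaks, was also the highest at Twist1, Kdr and Car4. It was not the highest at other genes of the same lists: Pdgfra and the neural gene Tubb3 were highest in aged replicate 2 (22.7 and 10.7 CPM). Osr2 was highest in young replicate 1 (36.3 CPM). The proximal gene Pdx1 (log2 fold change 0.25, edgeR's quasi-likelihood test, adjusted p = 0.263) and the epithelial gene Cldn7 (0.27, adjusted p = 0.212) had every aged value above every young value. The part of cell makeup or gut region in the Hoxd results was not tested.

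**Figure D4:**
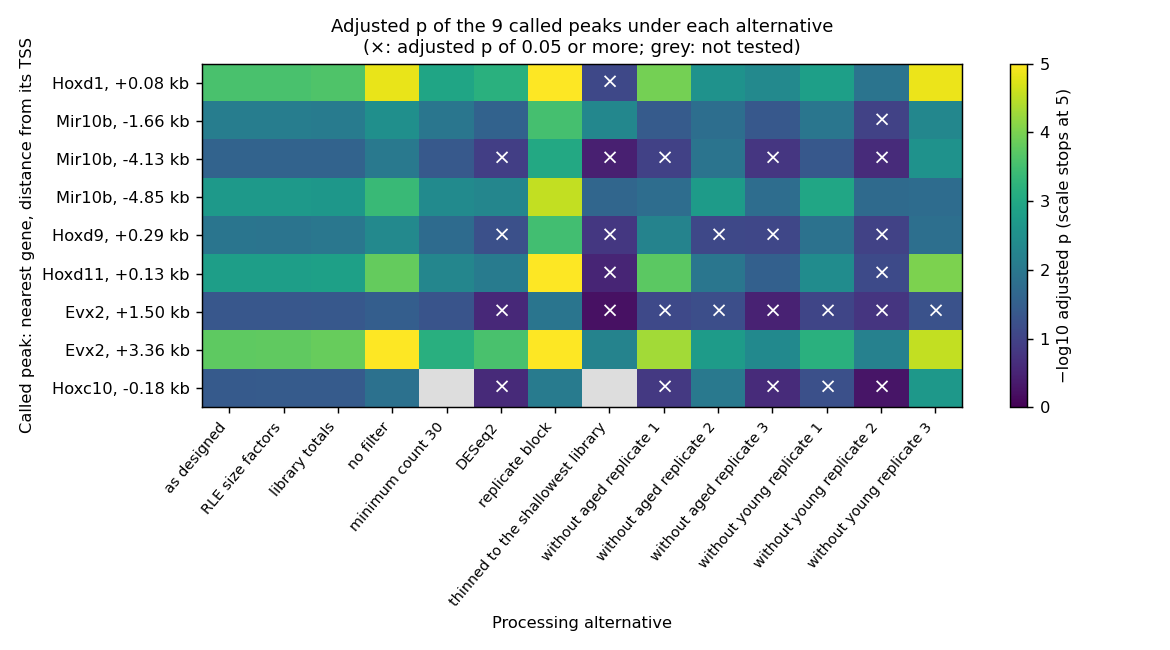
Adjusted p, as -log10, of the 9 called member peaks (rows) as designed and under the 13 processing alternatives (columns), with a cross where the adjusted p was 0.05 or more and grey where a peak was not tested. The Mir10b peak 4.85 kb upstream and the Evx2 peak 3.36 kb downstream carry no cross, and the Evx2 peak 1.501 kb downstream has one without each library in turn, in DESeq2 and in thinned libraries.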

How the data were processed

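The study deposited raw counts for each library over shared consensus peaks, with an annotation table on GRCm38. Per the file headers, the deposited counts were made with featureCounts and carry no normalisation. The submitters' processing notes name MACS2 2.2.7.1, BWA 0.7.17-r1188, featureCounts 2.0.1, Picard 2.23.1, Trim Galore 0.6.4, bedtools 2.29.2, SAMtools 1.10, FastQC 0.11.9, R 3.6.2, deepTools 3.4.3 and MultiQC 1.9. The Tn5 shift, the handling of duplicates and the unit counted (reads or fragments) are not given in the sources used here. Distances to the TSS are signed score values of the deposited annotation, and its nearest gene names each peak. The reads carry no molecular identifiers, so copies made by PCR were not separated by them.

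CPM values were computed from the deposited counts and TMM-scaled totals over all peaks. The age contrast was fitted without a block using edgeR 4.0.16 under R 4.3.3 (quasi-likelihood F test, robust dispersion, filterByExpr with a minimum count of 10), and p-values were adjusted by Benjamini-Hochberg over all tested peaks. Members, lists and tests were chosen with earlier results of these data known. The rule named every called member, the 2 strongest peaks per cluster by mean CPM, and per promoter list the called peaks and the 2 smallest p-values, of which 1 gene is not reported here. Same-numbered aged and young libraries share a passage in the labels and a culture code in the titles, which was read as a pairing, although the descriptions give 1 culture code to all 6 libraries. The deviations of these pairs correlated at 0.0738, 0.126 and 0.144. Tested on simulated data with 132055 peaks for this comparison, the script recovered 54% of 2-fold and 89% of 4-fold changes, with 11 false calls. The simulated counts followed the fitted trend of the dispersion, with no extra spread at single peaks and no library that departed from its group. The 11 false calls therefore give no error rate for the real libraries. Sequences came from RefSeq tables of GRCm38.p6, no genome was used, and base composition of peaks was not analysed here. Alternatives were RLE factors, library totals, no filter, a minimum count of 30, DESeq2 1.42.0, the replicate block, thinning to 7278161 counts and leaving out each library.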

Additional observations from a re-analysis of the deposited data

How the results depend on the processing

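No called result changed direction under the alternatives run. Over all peaks the calls numbered 1491, against 901 in DESeq2 (12803 peaks there had no adjusted p), 3523 with the replicate block, 649 in thinned libraries and 830 to 1902 with 1 library left out. With the block, member calls numbered 11, the 9 and 2 more, in Evx1 and Hoxd10. Lower member calls numbered 6 as designed, 3 in DESeq2, 1 in thinned libraries and 2 to 5 with 1 library left out, and higher ones were 2 to 4 under all alternatives. The Hoxa count was 1 with the block and 0 to 1 with 1 library left out. The Hoxc count was 0 with a minimum count of 30, in DESeq2 and in thinned libraries, and 0 to 1 with 1 library left out. The Hoxd count was 5 in DESeq2, 3 in thinned libraries and 3 to 7 with 1 library left out, the 3 being without young replicate 2. The passage trend over all peaks gave 32 calls with no filter and 0 to 53 with 1 library left out, 53 without young replicate 2. The aged mean of the Hoxc sum was 32.7 CPM in thinned libraries, against 32.0 CPM as designed. For the named peaks, 258 values kept their direction and side of the threshold, 29 lost their call and 3 gained one. The sign changed in 7, all at peaks near 0 that were not called: Hoxc4 (-0.01 as designed) was 0.12 in thinned libraries, 0.10 without aged replicate 2, 0.01 without aged replicate 3 and 0.13 without young replicate 3, in a range of -0.15 to 0.13 with 1 library left out. Hoxa7 (-0.10) was 0.02 without aged replicate 3 (range -0.19 to 0.02), and Hoxc8 (-0.08) was 0.01 in thinned libraries and 0.03 without young replicate 2 (range -0.12 to 0.03). The cause was not tested, except that thinning keeps fewer counts and fewer tested peaks (86674 against 132055) and leaving out a library keeps fewer samples. The medians of all peaks shifted by under 0.1 on the log2 scale between scalings. The 16 members with too few counts were not tested.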
